A study of Mus musculus with 22 samples.

Results

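Keratins 1, 10 and 32 (Krt1, Krt10 and Krt32) are 3 of the 17541 genes counted in single epithelial cells of mouse esophagus. They were selected by name after earlier results on these data, on their levels per mouse in each condition and their levels along an axis from Krt5, a basal keratin, to Krtdap, a gene of differentiating keratinocytes. The levels by condition and along that axis are therefore given as a description, with no test. Esophageal epithelium was peeled from C57BL/6 mice and its cells were captured in droplets (inDrop), where each RNA molecule carries a unique molecular identifier (UMI). The study compared healthy epithelium with a model of eosinophilic esophagitis (EoE), an allergic inflammation, and a model of esophageal squamous cell carcinoma (ESCC). The count tables covered 22 libraries of 13 mice, with 1500 cells for each condition.

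The 6 untreated control mice were young (3 to 4 months; mice 1, 2 and 6) or old (18 to 20 months; mice 3, 4 and 5). EoE was elicited over 32 days with the vitamin D analog MC903 and ovalbumin (OVA), put on the ears and followed by OVA given orally, in 2 young mice (6 to 8 weeks; mice 9 and 10) and 2 old mice (19 to 20 months; mice 11 and 12). ESCC was induced in 3 mice of 8 to 10 months (8M, 17F and 17M) by 4NQO, a quinoline carcinogen that damages DNA, dissolved at 100 µg/ml in drinking water for 16 weeks and then withdrawn for 8 weeks. Each control and ESCC mouse had 2 libraries and each EoE mouse 1, and the 2 libraries of a mouse were summed. Age differed between the conditions and cannot be told apart from them beyond the young and old groups of control and EoE. Controls were untreated, so other effects of MC903, OVA or 4NQO cannot be told apart from the disease models.

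Keratins are the intermediate filament proteins of epithelia, and a filament needs an acidic type I keratin paired with a basic type II keratin. Krt5 and Krt14 form the pair of dividing basal cells, and in epidermis the type II keratin Krt1 and the type I keratin Krt10 replace them as cells leave the basal layer to cornify. The mouse esophagus normally makes Krt4 and Krt13 in its suprabasal layers instead. Krt32 is a type I keratin of the hair family, known from the hair cuticle.

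The members lie in both keratin clusters of the mouse genome. In GRCm38, Krt1 (ENSMUSG00000046834) spans chr15:101845426-101850794 on the minus strand, with 9 exons in the transcript that has the most. Krt10 (ENSMUSG00000019761) spans chr11:99385254-99389364, with 8 exons, and Krt32 (ENSMUSG00000046095) spans chr11:100080848-100088226, with 7 exons, both on the minus strand. Antisense genes overlap both chromosome 11 members: Gm11940 over Krt10 has no row in the count tables, and Gm11571 over Krt32 had 3 UMIs in all cells. Whether counting used strand is not given in the sources used here, so reads of these partners cannot be told apart from the keratins' own. The neighbor of Krt32, the hair keratin Krt35, had 8 UMIs in all cells against 879 for Krt32.

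The 250 bases before the RefSeq start are shown for the 2 members with an entry, 1 that was higher and 1 that was lower in ESCC, written 5′ to 3′ on the gene's strand with each TATAAA in capitals. Those letters are the core of the motif where many promoters are opened for transcription. The Krt10 sequence is chr11:99389365-99389614 and the Krt32 sequence chr11:100088270-100088519 in GRCm38.p6, both minus strand. Krt1 is named only.
Krt10 upstream: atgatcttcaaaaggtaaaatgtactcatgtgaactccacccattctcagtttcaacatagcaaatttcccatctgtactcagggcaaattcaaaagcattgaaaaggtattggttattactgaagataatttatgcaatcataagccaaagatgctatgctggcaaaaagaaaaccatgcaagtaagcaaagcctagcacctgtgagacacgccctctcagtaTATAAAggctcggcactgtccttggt
Krt32 upstream: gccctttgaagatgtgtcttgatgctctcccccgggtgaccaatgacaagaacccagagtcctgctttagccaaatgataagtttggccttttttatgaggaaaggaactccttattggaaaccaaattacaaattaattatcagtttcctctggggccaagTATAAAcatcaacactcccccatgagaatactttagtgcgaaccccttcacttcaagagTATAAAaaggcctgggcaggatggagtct
TATAAA begins 26 bases before the start in Krt10, and 88 and 29 bases before it in Krt32. With both strands searched, 12.4% of 32851 RefSeq promoter windows of the same length held TATAAA. The AP-1 motif TGANTCA was in neither sequence and in 6.75% of windows. CCAAT was in both sequences and in 33.8% of windows.

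Cells were kept within the limits stated for the study (250 to 3500 genes and 100 to 9500 UMIs) and when marker genes did not call them non-epithelial, which left 1493 control, 143 EoE and 1465 ESCC cells. Of the 1500 deposited EoE cells, 1356 lay outside those limits. Summed depth was 111043 to 427752 UMIs per control mouse, 6245 to 41909 per EoE mouse and 1231048 to 2093444 per ESCC mouse, and the median cell held 990, 519 and 3108 UMIs. Epithelial markers were seen in all 3 conditions, but in an unlike mix. Marker levels were summed as CPM (counts per 1000000 UMIs). The 10 differentiated markers stood at 30601 to 63236 CPM in control, 116729 to 179824 in EoE and 6944 to 17558 in ESCC. The 10 basal markers stood at 12872 to 19677 CPM in control, 1726 to 3203 in EoE and 18788 to 28957 in ESCC. The kept EoE cells thus leaned to the differentiated side. Summed immune markers (20 of 24 in the tables) were 31.9 to 83.4 CPM in control, 0 in every EoE mouse and 167 to 296 in ESCC. Endothelial markers were 0 to 7.45 CPM in control, 71.6 to 278 in EoE and 1.16 to 5.69 in ESCC, and fibroblast markers 142 to 522, 0 to 377 and 41.1 to 163. In each EoE mouse 6 of the 7 endothelial markers were at 0. The kept EoE cells held 97975 UMIs in all, which limits what a low value or a 0 means there. The part of these non-epithelial markers in the results was not tested. The 2 libraries of a mouse shared 239 cell barcodes, and cells with a shared barcode were alike (median r across genes of 0.744, against 0.355 for other cells of the mouse). Libraries of different mice shared 45 barcodes, whose cells were not alike (median r 0.156). Results are given with all cells, and also with each barcode of a mouse once (2864 of 3101 cells) where that matters. The mouse is the replicate throughout.

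Krt1, the type II partner of the epidermal pair, was measured higher on average in ESCC than in control, with overlapping mice. Levels are in CPM, scaled between mice by edgeR's trimmed mean of M-values (TMM). They were 110.0, 210.4 and 241 CPM in ESCC mice 17F, 17M and 8M (165, 376 and 245 UMIs). In control mice 1 to 6 they were 246, 34.2, 0, 77.7, 11.0 and 32.3 CPM (98, 7, 0, 31, 3 and 10 UMIs). Control mouse 1 lay above every ESCC mouse, and the other 5 control mice lay below all of them. With each barcode once, control mouse 1 was at 207 CPM, between 17M (203) and 8M (235). For the 0 in control mouse 3, a count of 3 would have been 28.1 CPM. The means were 187 ± 68.4 CPM (SD, n = 3) in ESCC and 66.9 ± 91.8 (SD, n = 6) in control, a ratio of 2.79, which was 6.02 without control mouse 1 (control mean 31.1 ± 29.8, n = 5; a choice made after seeing the data).

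Krt10, the type I partner, had the same order of groups. ESCC mice 17F, 17M and 8M held 231, 342 and 366 CPM (346, 611 and 373 UMIs). Control mice 1 to 6 held 379, 88.0, 18.7, 143, 25.8 and 48.5 CPM (151, 18, 2, 57, 7 and 15 UMIs). Control mouse 1 was above all ESCC mice and the other 5 control mice below. With each barcode once, control mouse 1 fell to 265 CPM, below 17M (356) and 8M (376) and above 17F (239.6). The means were 313 ± 72.4 CPM (SD, n = 3) and 117 ± 136 (SD, n = 6), a ratio of 2.67, or 4.83 without control mouse 1 (64.8 ± 51.4, n = 5). With each barcode once the ratios were 3.00 for Krt1 and 3.25 for Krt10.

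Krt32, the hair family keratin, ran the other way. Control mice 1 to 6 held 467, 396, 234, 451, 430.4 and 478 CPM (186, 81, 25, 180, 117 and 148 UMIs). ESCC mice 17F, 17M and 8M held 8.67, 4.48 and 73.7 CPM (13, 8 and 75 UMIs). Every ESCC mouse was below every control mouse, and 8M was well above the other 2 ESCC mice. The means were 410 ± 90.8 CPM (SD, n = 6) in control and 28.9 ± 38.8 (SD, n = 3) in ESCC, 14.2-fold higher in control. Without 8M the log2 ratio of ESCC to control moved from -3.82 to -5.98. In bulk sums like these, fewer cells with a transcript and fewer transcripts per cell cannot be told apart, and the cells are counted separately below. All 3 genes passed the filter on low counts. For scale only, since this contrast was used to choose them, edgeR's quasi-likelihood test called 18.0% of 5863 tested genes higher and 16.4% lower in ESCC than in control (Benjamini-Hochberg adjusted p under 0.05).

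**Figure D1:**
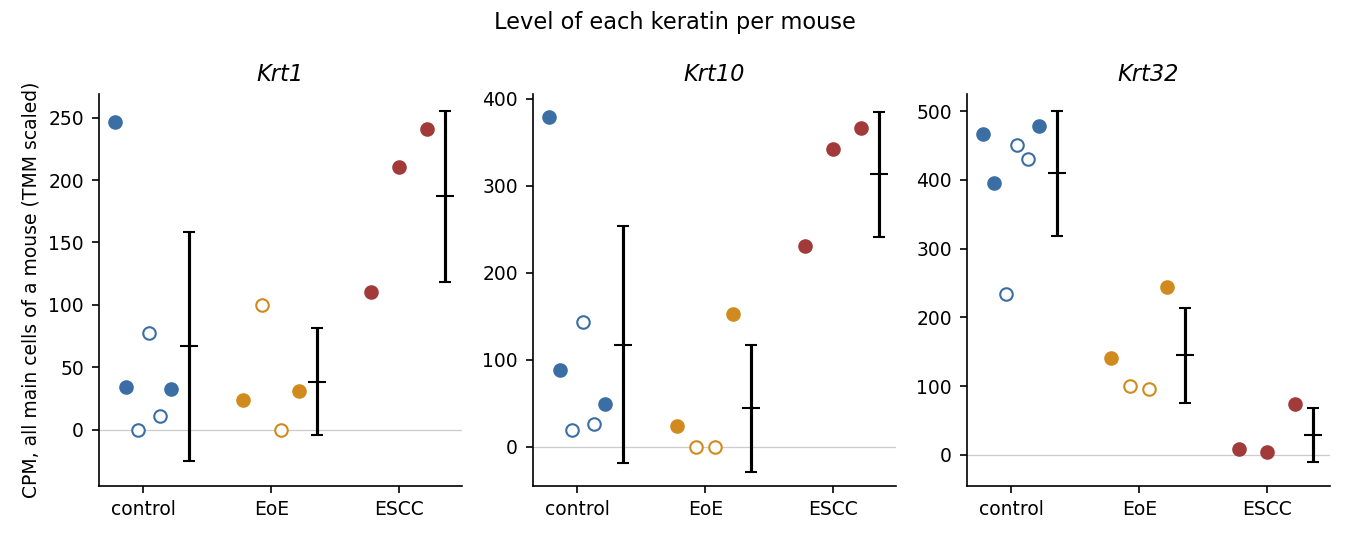
TMM-scaled CPM of Krt1, Krt10 and Krt32 (y axes) in each control, EoE and ESCC mouse (points; open circles are old mice), with the group mean and SD drawn beside them. Krt32 separates all ESCC mice (4.48 to 73.7 CPM) from all control mice (234 to 478 CPM), while control mouse 1 sits above the ESCC mice for Krt1 and Krt10 with all cells, though below 8M (235 and 376 CPM) with each barcode once (207 and 265 CPM).

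In EoE the counts behind the members were small. Krt1 was at 30.5, 23.4, 100.1 and 0 CPM in EoE mice 9 to 12, which is 1, 1, 1 and 0 UMIs. Krt10 was at 153, 23.4, 0 and 0 CPM, with 5 of its 6 UMIs in mouse 9. At the level of the median control mouse the 97975 UMIs of the EoE cells would have held 3.23 Krt1 and 6.64 Krt10 UMIs, against 3 and 6 seen. At the pooled control level, which control mouse 1 raises, they would have held 8.37 and 14.04. All deposited EoE cells held 5 Krt1 and 13 Krt10 UMIs, against 9.73 and 20.7 at the median control mouse and 25.3 and 42.6 at the pooled control level. These counts lay within the range set by the lowest and highest control mouse (0 to 72.0 for Krt1 and 5.29 to 111 for Krt10), so depth and the spread of the control mice limit any comparison. Zeros in mouse 12 allow up to 143 CPM and that of mouse 11 up to 300.4 CPM, taking a count of 3 as the limit.

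Krt32 had more counts in EoE. Mice 9 to 12 held 244, 140.3, 100.1 and 95.6 CPM (8, 6, 1 and 2 UMIs), with a mean of 145 ± 69.1 (SD, n = 4), 2.82-fold below the control mean. Mouse 9 lay just above the lowest control mouse (234 CPM) and the other 3 below all control mice. At the median control level 40.95 UMIs would have been seen, and 17 were, a pooled 174 CPM without TMM scaling (exact Poisson 95% interval 101 to 278, counting error only). All 1500 deposited EoE cells (297425 UMIs) held 42 Krt32 UMIs against 124 at the control level. The order of mean levels was ESCC, control, EoE for Krt1 and Krt10, with control and each of its neighbors overlapping, and control, EoE, ESCC for Krt32, with control and EoE overlapping in mouse 9 alone and EoE and ESCC not overlapping, on 1 and 2 UMIs in EoE mice 11 and 12. Without control mouse 1 the order of control and EoE turned for Krt1, with means of 31.1 and 38.5 CPM. For the EoE contrast edgeR called 9.50% of the 5863 genes higher and 24.9% lower than control, which is given for scale and not as a result on the members.

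Age within control was not used to choose the genes, so it was tested. Krt1 averaged 104 ± 123 CPM in young and 29.6 ± 42.04 in old control mice (SD, n = 3 each), Krt10 172 ± 181 and 62.4 ± 69.7, and Krt32 447 ± 44.7 and 372 ± 120.0. None of the 3 passed: the log2 differences, old minus young, were -1.49 ± 0.68 (SE) for Krt1, -1.25 ± 0.60 for Krt10 and -0.23 ± 0.23 for Krt32, with edgeR adjusted p of 0.948, 0.957 and 0.999. In the same test 5 of 5149 genes passed (0.0971%). At an unadjusted p under 0.05 2 of the 3 members (Krt1 and Krt10) and 259 of all genes passed, and DESeq2 gave each member an adjusted p of 0.9999. The Krt10 difference turned to 0.23 without control mouse 1. With no filter on low counts Krt1 and Krt10 did pass (edgeR adjusted p = 0.00522 and 0.00647). The share of all genes passing in that setting is not given here, so these calls have no background beside them. The young mean of Krt1 rested on control mouse 1, at 246 CPM against 34.2 and 32.3 in mice 2 and 6.

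The share of cells with a UMI showed the same contrasts with less overlap. Krt10 was seen in 223 of 1465 ESCC cells (15.2%; 14.3 to 18.6% by mouse) and in 54 of 1493 control cells (3.62%; 2.04 to 4.56%). Krt1 was seen in 9.01% of ESCC and 2.14% of control cells, and Krt32 in 4.98% and 29.0%. Because ESCC cells were sequenced deeper, every cell was thinned to 500 UMIs, which left out 35 control cells. Krt10 was then seen in 4.86% ± 0.203 of cells over the ESCC mice (4.64 to 5.03%) and in 1.51% ± 0.643 over the control mice (0.446 to 2.28%). Krt1 stood at 2.502% (2.22 to 2.83%) against 0.856% (0 to 2.03%), and Krt32 at 0.486% (0 to 1.26%) against 14.5% (10.0 to 18.4%). At 500 UMIs, in the random thinning used, the ESCC and control mice did not overlap for any of the 3 genes. The gap was narrow for Krt1, with 11 of 496 cells in 17F and 8 of 394 in control mouse 4. The 3 genes were chosen with this contrast known, and the share of all genes without overlap was not computed. At 1000 UMIs, which 758 control cells did not reach, Krt1 overlapped (4.03 to 7.55% in ESCC, 0 to 5.30% in control), and at 100 UMIs Krt32 was at 0 in every ESCC mouse and in at least 1 control mouse. Control mouse 1, the highest in CPM of the pair, had a UMI of Krt1 in 2.01% of its cells and of Krt10 in 2.01%, below every ESCC mouse at 500 UMIs. As a background for free RNA, the cells called non-epithelial showed Krt10 in 0 of 29 in ESCC (median 2097 UMIs), which allows up to 10.3%, Krt1 in 1 and Krt32 in 0. In control, 1 of 7 such cells (median 920 UMIs) held Krt10 and none held Krt1 or Krt32. These backgrounds rest on too few cells to set the low control shares of Krt1 and Krt10 apart from them.

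The epidermal pair was carried by few cells. In ESCC, 47 of 1465 cells had at least 5 Krt10 UMIs and held 1067 of the 1330 Krt10 UMIs (80.2%), with up to 126 in a single cell. For Krt1, 31 cells held 638 of 786 UMIs (81.2%). Mice 17F, 17M and 8M had 19, 19 and 9 of the Krt10 cells, so all 3 contributed. In control, 9 cells held 193 of 250 Krt10 UMIs (77.2%), and 8 cells held 103 of 149 Krt1 UMIs. Of those 9 control cells 6 came from mouse 1, where they held 138 of its 151 Krt10 UMIs, 1 from mouse 2 and 2 from mouse 4. Over all mice, 4 barcodes had at least 5 Krt10 UMIs in both libraries of a mouse and are counted in each. With each barcode once, 43 ESCC and 7 control cells reached 5 Krt10 UMIs, 4 of the 7 in mouse 1. ESCC cells were deeper, so these counts of cells are not comparable between conditions at face value. Thinned to 500 UMIs, 6 of 1465 ESCC and 7 of 1458 control cells had at least 5 Krt10 UMIs (5 and 3 for Krt1). At 1000 UMIs 12 of 1465 and 6 of 735 cells did (9 and 4 for Krt1). Krt32 was spread in contrast: in control only 21 of 1493 cells reached 5 UMIs, and they held 18.5% of its 737 UMIs, while no ESCC cell had more than 4.

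Krt1 and Krt10 were seen in the same cells more often than their shares alone give. In ESCC 55 cells had both, where the product of the shares gives 20.1. Each ESCC mouse showed it, with 17, 19 and 19 cells in 17F, 17M and 8M against 6.16, 7.43 and 6.86. In control 17 cells had both against 1.16, of which 8 were in mouse 1 and 6 in mouse 4. With each cell thinned to 1000 UMIs the counts were 21 against 5.57 in ESCC and 9 against 0.672 in control. Krt10 and Krt32 were seen together in 18 control cells against a product of 15.7, and in 22 ESCC cells against 11.1, which became 2 against 1.45 after thinning.

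The partners of Krt10 were not the same in every high cell. All 9 control cells with at least 5 Krt10 UMIs also had Krt1, with up to 34 UMIs. In ESCC, 23 of the 47 such cells had Krt1, and the rest had none. The 9 control cells were less deep than the 47 (median 1373 against 5408 UMIs). A cut of 5 UMIs thus asked for a higher level per cell in control, and the 2 shares are not comparable at face value. Over mice, both genes reached 5 UMIs in 3 cells of 17F, 7 of 17M and 5 of 8M. Scrublet, a doublet caller, marked 1 of the 47 ESCC cells and none of the 9 control cells, against 55 of all 1465 ESCC cells and 143 of all 1493 control cells.

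**Figure D2:**
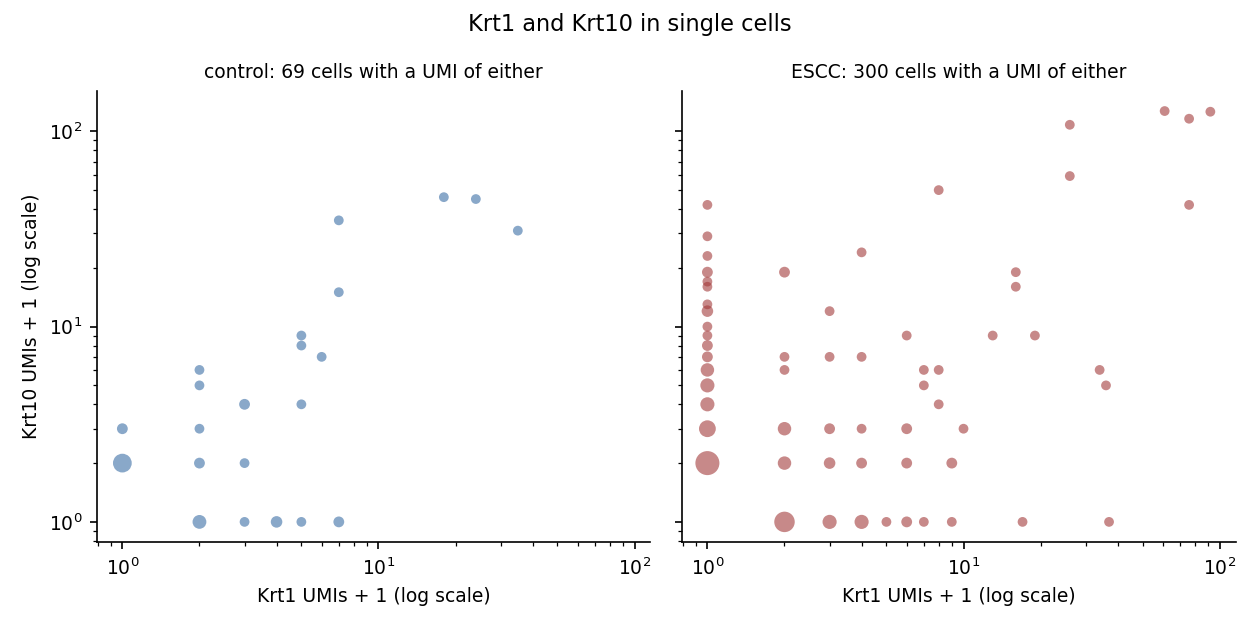
Krt10 UMIs (y) against Krt1 UMIs (x), each plus 1 on log axes, in single control and ESCC cells with a UMI of either gene (69 and 300 cells), where larger points stand for more cells at the same values. All 9 control cells with at least 5 Krt10 UMIs hold Krt1, while the ESCC panel also has a column of such cells without Krt1, and 23 of its 47 hold it. The control cells are less deep (median 1373 against 5408 UMIs), so 5 UMIs is a higher level there and the shares are not comparable at face value.

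Cells were then placed on the axis by the log10 level of Krtdap minus that of Krt5 (each per 1000 UMIs, plus 1), in 5 bins divided at -0.8, -0.3, 0.3 and 0.8. The bins from the Krt5 end to the Krtdap end held 568, 294, 147, 116 and 360 control cells and 712, 518, 153, 43 and 39 ESCC cells. Few ESCC cells reached the Krtdap end, and 28 of those 39 came from mouse 8M.

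In ESCC the epidermal pair rose toward Krtdap. Pooled Krt10 was 29.0, 108, 892, 764 and 2048 CPM in the 5 bins, and Krt1 was 42.5, 78.6, 555, 122 and 1001 CPM. Krt10 climbed at the middle bin in every ESCC mouse, to 866, 1005 and 635 CPM in 17F, 17M and 8M from 27.3, 34.7 and 24.5 at the Krt5 end. Cells at or above -0.3 held Krt10 at 845, 1213 and 1079 CPM in 17F, 17M and 8M, against 72.6, 76.6 and 31.8 below it, a mean log2 difference of 3.96 ± 0.68 (SD, n = 3). For Krt1 the difference was 2.82 ± 1.04, positive in 3 of 3 mice.

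In control the pair followed the same direction at lower levels. Pooled Krt10 was 16.6, 16.8, 120, 137 and 361 CPM and Krt1 3.31, 23.5, 79.8, 101 and 208 CPM. At the Krtdap end mouse 1 had 929 CPM of Krt10 and mouse 5 had 30.2, so the mice differed widely there. The log2 difference across -0.3 was 2.04 ± 2.29 (SD, n = 6) for Krt10, positive in 5 of 6 mice, and 1.79 ± 2.17 for Krt1, positive in 4 of 6.

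Krt32 rose along the axis in every control mouse. Pooled levels were 189, 249, 619, 714 and 648 CPM, and cells at or above -0.3 held more than cells below it in mice 1 to 6, by 1.85, 1.99, 1.37, 1.04, 1.41 and 1.91 on the log2 scale (mean 1.60 ± 0.38). In ESCC it stayed low throughout, at 14.5, 9.76, 17.4, 86.6 and 105 CPM, with a log2 difference of 0.71 ± 0.84, positive in 2 of 3 mice. All of its ESCC signal at the Krtdap end was in 8M (18 UMIs in 28 cells), and 17F and 17M held none there in 4 and 7 cells.

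Within bins the conditions still stood apart. Comparing mice with at least 10 cells in a bin, at full depth, Krt32 of control exceeded that of ESCC without overlap in every bin. The pooled CPM differed 13.03, 25.5, 35.6, 8.24 and 6.18-fold. The last bin had only 1 such ESCC mouse. Krt10 of ESCC exceeded control 1.75-fold at the Krt5 end, where mice overlapped, and 6.46, 7.45, 5.58 and 5.67-fold in the other bins, where they did not (again with 1 ESCC mouse in the last bin). The gap in Krt10 between conditions was therefore seen outside the most basal cells. Krt1 ratios were 12.8, 3.34, 6.95, 1.21 and 4.81, with overlap in the middle and the next bin, and with cells thinned to 500 UMIs the Krt1 mice overlapped in every bin. Krt32 mice then overlapped in the bin next to the Krt5 end (0 to 58.0 CPM in ESCC, 0 to 381 in control). The genes were chosen with this contrast known, and the share of all genes without overlap in these bins was not computed. The lack of overlap is therefore a description of these mice only.

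**Figure D3:**
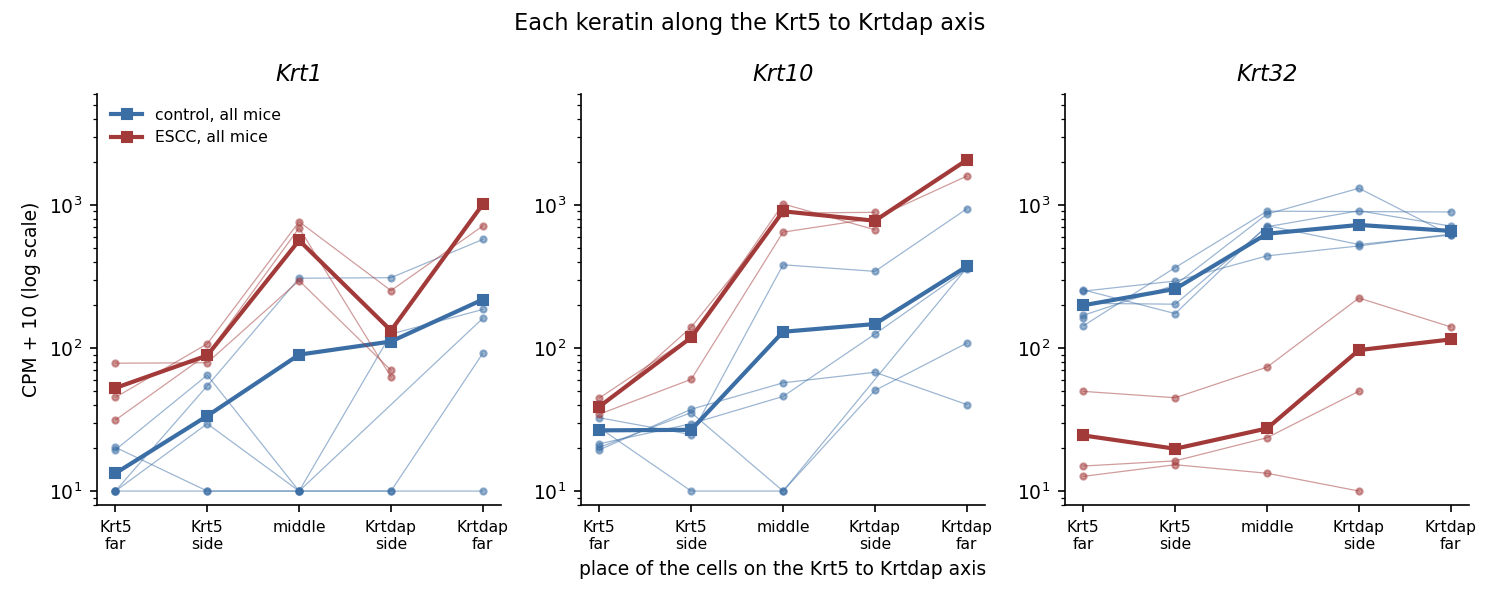
CPM plus 10 on a log axis (y) of Krt1, Krt10 and Krt32 in 5 bins from the Krt5 end to the Krtdap end (x), for control and ESCC; thick lines pool all cells of a condition and thin lines are mice with at least 10 cells in a bin. Krt10 reaches 2048 CPM in ESCC and 361 in control at the Krtdap end, while pooled Krt32 stays at or above 189 CPM in control and at or below 105 in ESCC.

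Which other genes went with Krt10 was tested inside the ESCC mice, among cells at or above -0.3 on the axis thinned to 1000 UMIs, with the mouse as a block. The classes were set on the thinned counts, where mice 17F, 17M and 8M had 15, 18 and 19 cells with Krt10 and 52, 82 and 49 without. At full depth 54, 18 and 25 ESCC cells held Krt10 in the bins from the middle to the Krtdap end. Some cells of the negative class thus held Krt10, which limits what the comparison can find. Of 628 genes, 2 were higher (0.318%) and 1 lower (0.159%) in Krt10 positive cells by edgeR. The higher genes were Krt1 and Car2, a carbonic anhydrase, and the lower gene was Krt17, a keratin of stressed and wounded epithelium.

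Krt1 stood at 1000, 2278 and 1789 CPM in positive cells of 17F, 17M and 8M, and at 135, 122 and 122 CPM in negative cells. All 3 mice showed it, with a log2 difference of 3.74 ± 0.31 (SE), which is a description since Krt1 and Krt10 were picked together. Car2 was at 467, 556 and 1158 CPM in positive and 135, 256 and 102 CPM in negative cells, a log2 difference of 2.03 ± 0.43 (SE, edgeR adjusted p = 0.0103; 1.17e-05 to 0.869 over the alternatives). Krt17 was at 133, 111 and 0 CPM in positive and 692, 1280.5 and 0 CPM in negative cells, so it differed in 2 mice and had no UMI in 8M (log2 difference -3.02, edgeR adjusted p = 0.000918; 1.56e-07 to 0.9995 over the alternatives). The Car2 call was lost with DESeq2, no block, no filter, each barcode once and 500 UMIs, and without mouse 17M or 8M. The Krt17 call was lost with DESeq2, each barcode once and 500 UMIs, and Krt17 had no value with no block or without 17F or 17M. Without 17M Krt1 itself did not pass.

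The cells with at least 5 Krt10 UMIs, which in part are the same cells, are described at full depth. The 47 ESCC cells were deeper than the rest (median 5408 against 3074 UMIs) and lay further along the axis (median 0.12 against -0.80), so shares of cells with a UMI are not comparable at face value. Car2 was in 29 of the 47 (61.7%) and in 34.4% of the other ESCC cells, and in control it was in 6 of the 9, all from 2 mice. Krt17 was at 80.2 CPM in the 47 cells and 591 CPM in the rest. The other stress keratins were the other way round, with Krt6a at 9709 against 4594 CPM, Krt6b at 12972 against 3498 and Krt16 at 2258 against 1074.

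Without the restriction on the axis, 48 of 3873 genes were higher (1.24%) and 26 lower (0.671%) in Krt10 positive ESCC cells. Those cells also had more Krtdap (log2 difference 1.28) and less Krt5 (-0.63), so position on the axis moved with the comparison. The largest rises after Krt1 were in Ly6g6e (2.88), a Ly6 family member, Mall (2.24), the small proline rich proteins Sprr2i (2.24) and Sprr2b (2.13), and Serpinb3a (2.06), a protease inhibitor. The largest falls were Krt17 (-2.36), Itm2c (-2.27) and Ube2c (-2.26), a mitotic ubiquitin-conjugating enzyme, and the hemidesmosome genes Itgb4 (-1.41) and Col17a1 (-1.37) were lower too. Of the 4 stress keratins 3 were higher and only Krt17 was lower. Of the epidermal cornification genes tested there, 5 of 12 were higher and none lower. Among cells at or above -0.3 on the axis, 0 of 6 were called in either direction (median log2 difference 0.09), with 33 of all 628 genes at an unadjusted p under 0.05. No control mouse had 10 Krt10 positive cells in the range, so the comparison was not made in control.

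Krt32 was compared in the same way in control, a comparison added after seeing the data. Cells at or above -0.3 were thinned to 500 UMIs before the classes were set. Control mice 1 to 6 had 41, 16, 3, 35, 24 and 33 Krt32 positive cells. They had 119, 32, 11, 158, 74 and 65 negative cells. At full depth 59, 47 and 182 control cells held Krt32 in the bins from the middle to the Krtdap end. Some negative cells thus held Krt32, which limits what the comparison can find. Among these cells 1 of 364 genes passed (0.275%). This was Sprr3, a small proline rich protein of the suprabasal esophagus, lower in Krt32 positive cells by a log2 difference of -0.62 ± 0.16 (SE, edgeR adjusted p = 0.0309; 8.71e-06 to 0.9997 over the alternatives). It was lower in mice 1, 2 and 6, higher in mice 4 and 5 and at 0 in both classes of mouse 3, and the call was lost without mouse 1, 2, 4 or 6.

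Over all placed control cells, 53 of 823 genes were higher (6.44%) and 58 lower (7.05%) in Krt32 positive cells, where Krtdap was again higher (0.97) and Krt5 lower (-0.89). The higher genes were led by Acsl1 (1.27), a fatty acid ligase, Msmo1 (1.23), a sterol synthesis enzyme, Zfp750 (1.22), a regulator of keratinocyte differentiation, the desmosomal cadherin Dsc2 (1.14) and Elovl4 (1.13), which elongates fatty acids. Mitotic genes were among the lower ones, with Cenpf at -1.90, Ube2c at -1.79 and Top2a at -1.61, beside the basal keratin Krt14 at -1.38. Of the 8 basal markers tested 7 were lower, and of the 8 differentiated markers 5 were higher. Among cells at or above -0.3, none of 3 basal markers was lower, and of 8 differentiated markers none was higher and 1, Sprr3, was lower (edgeR; 9 of 364 genes at an unadjusted p under 0.05). Sprr3 turned to 0.27 in this setting (adjusted p = 0.330).

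Genes with a pattern like the members were ranked by Pearson r over the sums of mouse and bin (log2 of CPM plus 10; bins of at least 10 cells), a description over sums that share mice and depth. Over 13 ESCC sums, Krt10 was most like 4833423E24Rik (0.978), Gsdmc, a pore-forming gasdermin (0.971), Lypd3, a Ly6 family surface protein (0.969), Dsg1b, a desmosomal cadherin (0.968), and Sult2b1, a cholesterol sulfotransferase (0.965). Krt1 was most like Usp25 (0.891), Erlin1 (0.876), Etfrf1 (0.860), Zfp185 (0.849) and Eno1 (0.830), and its r with Krt10 was 0.719. Krt32 in ESCC was most like Acaa2 (0.907), Prelid1 (0.900), Bet1 (0.898), Sptssb (0.896) and Pim3 (0.893). Over 25 control sums, a ranking added after seeing the data, Krt1 and Krt10 were each other's closest gene (0.842). Krt32 in control was closest to Aldh3b2, an aldehyde dehydrogenase (0.912), the metallothionein Mt4 (0.908), Ly6d (0.906), Anxa1 (0.890) and the fatty acid binding protein Fabp5 (0.877), and its r with Krt1 and Krt10 was 0.302 and 0.461.

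Among the 46 keratin genes in the tables, 14 had at least 100 UMIs in all cells, 25 had fewer and 7 had none. Krt10 with 1595 UMIs, Krt1 with 954 and Krt32 with 879 were minor beside Krt4 (76692), Krt5 (58485) and Krt14 (55349). Krt80, a keratin of the cornification list, had 274 UMIs (223 in control, against 250 for Krt10 and 149 for Krt1, not adjusted for length), and Krt78 had 79. Several other epidermal and hair keratins were nearly absent: Krt2, the late epidermal keratin, had 2 UMIs, Krt77 had 2, Krt9 had 4, and the hair keratins Krt35, Krt36 and Krt33b had 8, 5 and 2. Krt32 was thus seen with few UMIs of these hair keratins.

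Genes that accompany Krt1 and Krt10 in epidermis were listed as 42 cornification genes, without the members. Of these 37 were in the tables and 22 passed the filter on low counts. In ESCC 19 of the 22 were lower than in control by edgeR, 1 was higher and 2 did not pass, with a median log2 difference of -2.64 against 0.01 over all genes tested. The lower genes were led by Hrnr, a filaggrin family protein at 0 in every ESCC mouse and at least 21.8-fold lower (taking 3 counts over the ESCC mice as the limit), the protease Asprv1 (-4.74), Lce3c, a late envelope protein (-4.69), Lor (-4.42), Krt80 (-3.94) and Calml3 (-3.67). The exception was Calm4, a calmodulin-like protein (0.77; named after its value was seen), which was not called with DESeq2. In the same ESCC mice the mean levels of Krt1 and Krt10 lay above the control means, as given above. These are sums over all cells of a mouse, and 39 of 1465 ESCC cells lay at the Krtdap end against 360 of 1493 in control. Differentiated markers were also lower in ESCC, as given above, and Krtdap itself is in the list (-1.08). The part of this mix of cells in the list was not tested.

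In EoE the same list went up in part. Of the 22, 10 were higher than control, 4 lower and 8 did not pass, with a median of 1.13 against -0.74 over all genes. Hrnr (3.64), Dsc1 (2.55), Dsg1b (2.27), Lor (2.17) and Asprv1 (1.94) were higher, and Tgm1 (-2.37), which crosslinks the envelope, was lower. Hrnr and Klk14 (2.40, named after its value was seen) are among the 10. Their control means were 15.2 and 13.4 CPM and their ESCC means 0 and 0.55. They therefore passed the filter on low counts through EoE, which favored a call of higher there. With all deposited EoE cells the counts were 5 higher and 6 lower. Krt1 and Krt10 themselves held 3 and 6 UMIs in the kept EoE cells. Those cells had lower basal and higher differentiated markers than control, as given above, and the part of this in the list was not tested.

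**Figure D4:**
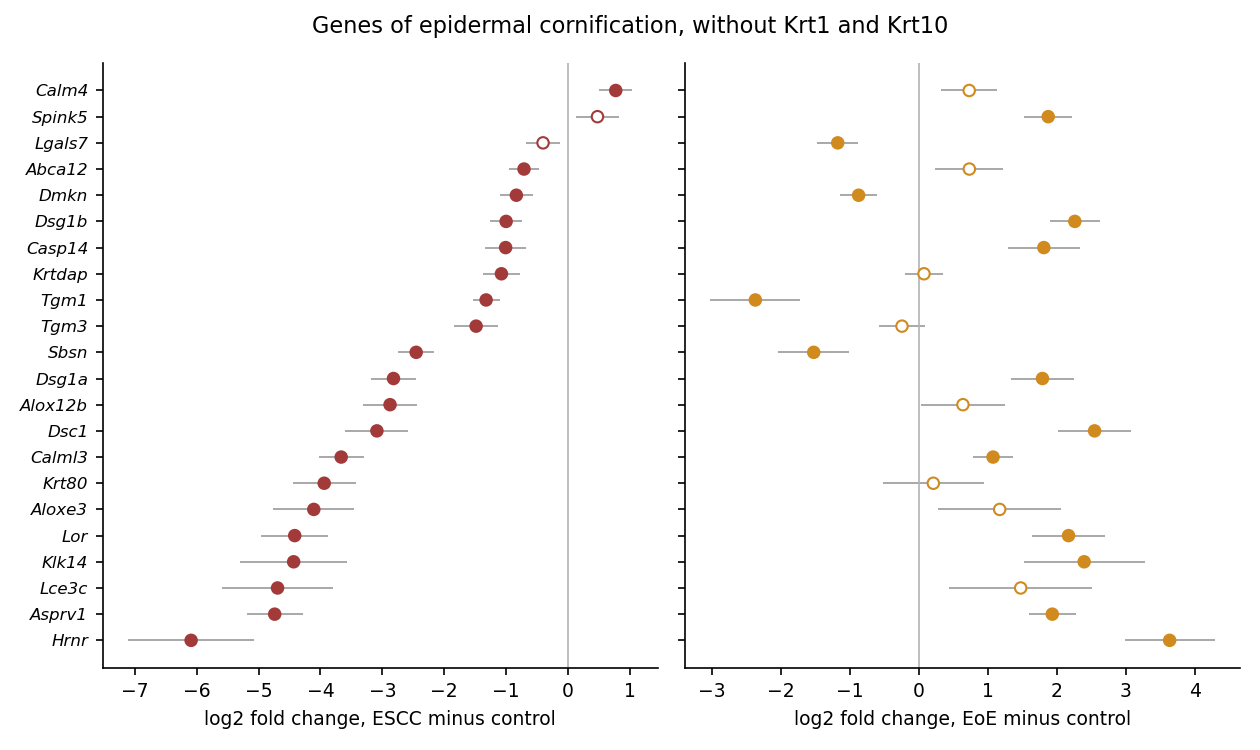
Log2 difference from control (x, fitted by edgeR, with SE bars) of each tested gene of the epidermal cornification list in ESCC and EoE; filled points passed at an edgeR adjusted p under 0.05 and open points did not. In ESCC 19 of 22 genes lie below 0 and passed, and in EoE 10 passed above 0 and 4 below; Hrnr had no UMI in ESCC, so its point there is set by the fit.

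The hair and nail list, the company Krt32 keeps in hair, was hardly measured. Of 33 genes 25 were in the tables and 2 passed the filter, Dlx3 (-1.02) and Vdr (-0.08), and neither was called in ESCC (edgeR adjusted p = 0.177 and 0.818; 0 at an unadjusted p under 0.05). Of 31 tested regulators of keratinocyte differentiation, 4 were higher and 13 lower in ESCC, with a median of -0.35. The lower ones included Grhl3 (-2.10), Ovol1 (-1.54), Hopx (-1.52) and Elf3 (-1.25). All 11 tested genes of the esophageal keratin and differentiation list were lower in ESCC. The 4 stress keratins Krt16 (9.14), Krt6b (6.43), Krt6a (4.14) and Krt17 (3.72) were higher, and 2 of 3 basal keratins were higher and 1 lower. The part of the mix of cells in these lists was not tested either.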

How the data were processed

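The authors processed inDrop reads per the labels with UMI-tools 1.0.0, STAR 2.7.3 and featureCounts on GRCm38, and deposited raw UMI counts per gene and cell, sampled down to 1500 cells per condition. Members and gene lists were chosen with earlier results of these data known. Mice were identified from the sample titles. Cells outside 250 to 3500 genes or 100 to 9500 UMIs, or with at least 3 UMIs of non-epithelial markers that also outnumbered epithelial ones, were left out. Counts were summed per mouse and tested with edgeR 4.0.16 (R 4.3.3; quasi-likelihood test, TMM, filterByExpr, Benjamini-Hochberg over all genes tested, threshold 0.05). The authors' methods state no test per gene. List comparisons shared 1 fit over all 13 mice, so the ESCC and EoE contrasts share the control mice. Age used the 6 control mice, and the comparisons of Krt10 or Krt32 positive and negative cells used the mouse as a block, since both sums came from the same animal. Folds of the members are ratios of mean CPM. Alternatives were DESeq2 1.42.0, other scalings, filters, cells, depths and axes, no Scrublet doublets (scanpy 1.11.5; 260 of 4500 cells marked and kept otherwise), and each mouse left out. Fits were tested on simulated data. Named genes were up to 6 called genes per list and contrast with the largest fold (average log2 CPM of at least 4), up to 10 per direction between positive and negative cells (at least 5), and the 5 most like each member; some genes that this rule names are not reported here. Intervals and limits from counts of 3 cover counting error only.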

Additional observations from a re-analysis of the deposited data

Results flagged for a closer look

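Among 15 sets of values examined (each member's CPM and share of cells with a UMI in the 6 control and the 4 EoE mice, and its axis difference in control), 4 had a mouse whose gap to its nearest neighbor exceeded Dixon's 95% critical value. Chance gives this in about 1 in 20 sets where sets are independent and normally spread. These sets share mice, cells and counts, so the 4 cannot be set against that rate. Control mouse 1 stood above the other control mice for Krt1 (246 CPM, the next at 77.7) and for Krt10 (379 CPM, the next at 143). In that mouse 6 cells held 138 of the 151 Krt10 UMIs, and why it held more such cells was not tested. With each barcode once, 4 cells held 87 of its 96 Krt10 UMIs. Its gaps were then smaller, with Krt1 at 207 CPM (the next at 82.5) and Krt10 at 265 CPM (the next at 157). Dixon's critical value was applied with all cells only, so these marks rest in part on repeated barcodes. EoE mouse 9 stood above the other EoE mice for Krt10 at 153 CPM (the next at 23.4), on 5 UMIs. Control mouse 3 stood below the other control mice for Krt32 at 234 CPM (the next at 396), and it had the fewest cells of the control mice, 70 with 25 Krt32 UMIs.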

How the results depend on the processing

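Of the 176 values recomputed under other settings than leaving out a mouse, 135 kept their direction and their side of the threshold or stayed within the spread. Levels of the members kept their direction in ESCC under every such setting, with log2 ratios to control of 1.27 to 1.59 for Krt1, 1.21 to 1.70 for Krt10 and -4.05 to -3.82 for Krt32. Leaving out 1 mouse gave 1.21 to 2.59, 1.19 to 2.27 and -5.98 to -3.32, and -3.83 to -0.52 for Krt10 in EoE. The axis difference of Krt32 in control moved to 2.55 with summed marker lists and to 2.01 with cells thinned to 500 UMIs. With no filter on low counts the age differences of Krt1 (-1.50) and Krt10 (-1.26) passed, where the share of all genes passing is not given here. Without control mouse 1 the age difference of Krt10 reversed to 0.23 (range over mice left out -2.94 to 0.23). The 1 cornification gene higher in ESCC became 0 with DESeq2, with plain library sizes, with only the 2 groups compared and without doublets (0 to 1 without 1 mouse). In EoE 5 were higher with all deposited cells, and leaving out 1 mouse gave 5 to 11 higher and 2 to 4 lower. Without the filter 1 hair and nail gene was lower in ESCC.

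For Krt10 positive ESCC cells, the genes higher were 1 with no replicate block, with DESeq2, with no filter, with each barcode once and at 500 UMIs, and 48 over all placed cells. The genes lower were 0 with no block, DESeq2, each barcode once and 500 UMIs, 4 with no filter, 2 with at least 2 Krt10 UMIs and 26 over all placed cells. Leaving out 1 mouse gave 0 to 5 higher and 0 to 2 lower. For Krt32 positive control cells, 53 were higher over all placed cells. Lower were 0 with no block, DESeq2 and each barcode once, 15 with no filter, 58 over all placed cells and 0 to 2 without 1 mouse. Sprr3 reversed to 0.27 over all placed cells. The cause of these changes was not tested. All placed cells and no filter test other cells or more genes by construction. Depth limits EoE most: its 97975 UMIs hold 3 Krt1 and 6 Krt10 UMIs.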
